A study of Mus musculus with 10 samples.

Results

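The genes described here are 9 genes that mark medium spiny neurons, the projection neurons of the striatum: *Drd1*, *Drd2*, *Adora2a*, *Ppp1r1b*, *Rgs9*, *Pde10a*, *Penk*, *Tac1* and *Gpr6*. They were looked up by symbol among the 22000 genes of a count table from the prefrontal cortex (PFC). Of the 9, 8 had a row and all 8 passed the filter on low counts, which kept 14344 genes, and the row for *Drd1* was not found under its symbol, so *Drd1* is not analysed here. The PFC of 5 *Zbtb16* KO mice and 5 WT mice was sequenced, with 1 library per mouse. Both copies of *Zbtb16* in a KO mouse carried the lu allele of the B6.C3-Zbtb16 lu/J strain, a nonsense point mutation in the gene of a zinc finger transcription factor, so that all cells of the animal carried it. The controls are given as wild type without further detail, and the mice of both groups were 7 weeks old and labelled as male. The question asked of the 8 genes was whether they varied together between mice, as they would if some dissections held more striatal tissue than others, and how they then compared between KO and WT mice.

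Medium spiny neurons release GABA and form most of the neurons of the striatum, which lies directly beneath the frontal cortex. Those of the direct pathway carry the dopamine receptor DRD1, which raises cAMP, and make substance P, which is encoded by *Tac1*. Those of the indirect pathway carry the dopamine receptor DRD2, which lowers cAMP, together with the adenosine receptor encoded by *Adora2a* and the receptor GPR6, and make enkephalin from *Penk*. Both kinds contain DARPP-32 (*Ppp1r1b*), an inhibitor of protein phosphatase 1 that is switched by cAMP, RGS9, which shortens G protein signaling, and PDE10A, which breaks down cAMP and cGMP. Neurons of the cortex also make some of these RNAs, and in bulk tissue fewer cells of a type and less RNA per cell cannot be told apart.

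Several features of the libraries bear on all of the results. Totals lay between 30220122 and 51231439 counts per mouse, so that a gene at 3 counts would be at 0.0586 to 0.0993 CPM (counts scaled to library size). The targeted gene was lower in every KO mouse. The CPM of *Zbtb16* was 47.4 ± 4.95 in the KO mice (SD, n = 5; range 42.1 to 52.8) and 78.9 ± 7.23 in the WT mice (SD, n = 5; range 70.7 to 88.3). Its log2 fold change was -0.67 ± 0.06 (SE; adjusted p = 2.8e-05, edgeR). The library labelled KO 3 went against its label, since it held 1 count over 4 Y-linked genes while the other 9 libraries held 4376 to 8182, and results without it are given below. WT 5 stood apart from the other WT mice in the genes described here. The RNA integrity number (RIN) was 9.5 or above in 6 mice, 3 of each genotype, and 8.3 or below in 4 mice, 2 of each genotype.

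Promoters of 3 genes with a wide range between mice (*Gpr6*, *Drd2* and *Rgs9*) and of *Tac1*, the gene of the direct pathway, are shown first, as a window from 250 bases before to 50 bases after a RefSeq start on GRCm38. Windows were held for 5 of the 8 genes, with 2 for *Pde10a*, and none was matched for *Adora2a*, *Ppp1r1b* and *Penk*. The cAMP response element (CRE) is shown because cAMP is the messenger that most of these genes act on or answer to. Capitals mark TGACG, which is one part of the CRE TGACGTCA, and the GC box GGGCGG, each on either strand. The *Gpr6* window is chr10:41072241-41072540 on the minus strand, the *Drd2* window chr9:49340153-49340452 on the plus strand, the *Tac1* window chr6:7554811-7555110 on the plus strand and the *Rgs9* window chr11:109298132-109298431 on the minus strand.
Gpr6: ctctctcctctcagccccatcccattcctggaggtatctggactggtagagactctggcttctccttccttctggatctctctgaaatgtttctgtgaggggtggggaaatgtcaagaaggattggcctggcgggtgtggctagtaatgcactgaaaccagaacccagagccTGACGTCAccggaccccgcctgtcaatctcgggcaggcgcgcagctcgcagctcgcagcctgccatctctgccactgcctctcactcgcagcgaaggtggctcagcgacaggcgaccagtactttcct
Drd2: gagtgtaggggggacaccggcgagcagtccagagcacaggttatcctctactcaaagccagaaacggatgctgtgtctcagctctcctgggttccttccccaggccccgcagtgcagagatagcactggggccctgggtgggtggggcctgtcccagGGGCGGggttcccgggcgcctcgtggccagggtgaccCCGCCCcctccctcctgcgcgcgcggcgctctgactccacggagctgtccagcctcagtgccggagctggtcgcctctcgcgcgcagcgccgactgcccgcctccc
Tac1: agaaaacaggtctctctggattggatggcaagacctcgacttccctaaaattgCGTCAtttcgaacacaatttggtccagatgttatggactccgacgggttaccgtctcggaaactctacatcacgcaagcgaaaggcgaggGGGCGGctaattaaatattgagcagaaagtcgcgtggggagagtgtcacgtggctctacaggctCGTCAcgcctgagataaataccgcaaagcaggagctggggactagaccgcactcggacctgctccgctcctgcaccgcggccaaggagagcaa
Rgs9: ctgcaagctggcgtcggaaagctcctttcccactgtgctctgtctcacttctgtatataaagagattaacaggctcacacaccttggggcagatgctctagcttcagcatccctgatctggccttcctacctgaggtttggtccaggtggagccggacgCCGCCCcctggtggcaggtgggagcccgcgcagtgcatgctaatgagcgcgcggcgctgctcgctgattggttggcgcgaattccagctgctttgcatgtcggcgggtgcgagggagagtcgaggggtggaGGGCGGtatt

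Of the 4 windows printed, that of *Gpr6* alone held the whole CRE, which began 78 bases before the start, and it held no GC box. TGACGTCA was present in 1.79% of 32851 promoter windows of the same length, and the shorter TGACG, which lies within it, in 20.8%. The *Tac1* window held TGACG at 2 places, 197 and 43 bases before the start, and a GC box 107 bases before the start. The *Drd2* window held 2 GC boxes and neither form of the CRE. The *Rgs9* window held 2 GC boxes and both *Pde10a* windows 1 each, against 35.7% of all windows with at least 1. Each match is a description of letters, and the counts of these libraries do not show whether a factor was bound there.

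The levels of the 8 genes in this tissue differed widely when counts were set against length. Per kilobase of exon, the WT mean was highest for *Ppp1r1b*, at 38.4 ± 11.96 CPM per kb (SD, n = 5), followed by *Penk* at 28.7 ± 13.3. These first 2 overlapped in their spread. *Pde10a* was at 8.71 ± 2.80, *Tac1* at 3.70 ± 0.73 and *Rgs9* at 2.43 ± 1.35 CPM per kb. The 3 receptors came last, with *Adora2a* at 1.46 ± 1.53, *Drd2* at 1.13 ± 1.42 and *Gpr6* at 0.66 ± 0.85 CPM per kb, and these did not differ beyond their spread. In the KO mice the first 5 genes kept this order, with *Ppp1r1b* at 42.9 ± 7.95 and *Rgs9* at 2.90 ± 0.91 CPM per kb, and *Drd2* at 1.75 ± 0.92 was next to *Adora2a* at 1.64 ± 1.04.

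Among the genes of the indirect pathway, the receptors had the widest range between mice. *Drd2* was at 1.89, 1.42, 0.70, 1.06 and 9.27 CPM in WT 1 to WT 5 and at 1.16, 5.10, 3.05, 6.08 and 6.92 CPM in KO 1 to KO 5. One WT mouse, WT 5, was therefore the highest of all 10, while the other WT mice and KO 1 were the lowest. *Adora2a* was at 2.59, 2.51, 2.76, 1.61 and 12.8 CPM in the WT mice and at 2.48, 4.73, 2.13, 5.84 and 9.99 CPM in the KO mice. WT 5 and KO 5 were again the highest mice, and KO 1 and KO 3 were within the range of WT 1 to WT 4. *Gpr6*, an orphan receptor that keeps cAMP high, was at 0.50, 0.80, 0.20, 0.53 and 3.87 CPM in the WT mice, from 7 counts in WT 3 to 136 counts in WT 5. In KO 1 to KO 5, *Gpr6* was at 0.73, 2.29, 1.36, 3.75 and 4.70 CPM. *Penk* was at 40.1, 35.5, 37.7, 35.5 and 85.6 CPM in the WT mice and at 35.2, 56.4, 51.9, 60.4 and 55.7 CPM in the KO mice, so that 4 of 5 KO mice lay between WT 5 and the rest of the WT mice. *Penk* shares its locus with the noncoding gene A830012C17Rik, and whether the counting used strand is not given in the sources used here, so its counts carry that uncertainty.

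The direct pathway was represented by *Tac1*, which varied least of the 8 genes. *Tac1* was at 10.5, 10.9, 12.2, 12.5 and 16.7 CPM in WT 1 to WT 5 and at 14.7, 16.4, 16.1, 18.4 and 19.0 CPM in KO 1 to KO 5. Every KO mouse was above WT 1 to WT 4, and the groups overlapped through WT 5, which lay above KO 1 to KO 3. *Tac1* is also made by some interneurons of the cortex.

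The genes shared by both pathways varied less in proportion than the receptors, with WT 5 and KO 4 as 2 of the 3 highest mice in each. *Ppp1r1b* was at 117, 107, 83.5, 84.9 and 170 CPM in the WT mice and at 109, 104, 114, 155 and 146 CPM in the KO mice. WT 5, KO 4 and KO 5 were the 3 highest. *Rgs9* was at 10.9, 12.5, 12.6, 10.7 and 30.9 CPM in the WT mice and at 11.3, 16.8, 15.7, 23.6 and 25.4 CPM in the KO mice. *Pde10a* was at 72.6, 94.3, 112, 111 and 170 CPM in the WT mice and at 94.8, 121, 116, 135 and 105 CPM in the KO mice. Here KO 5 was only seventh of the 10 mice, while it was among the first 4 in the other 7 genes. *Ppp1r1b* overlaps 1 noncoding gene and *Pde10a* overlaps 3 genes, 1 of them coding, which adds the same uncertainty as for *Penk*.

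**Figure D1:**
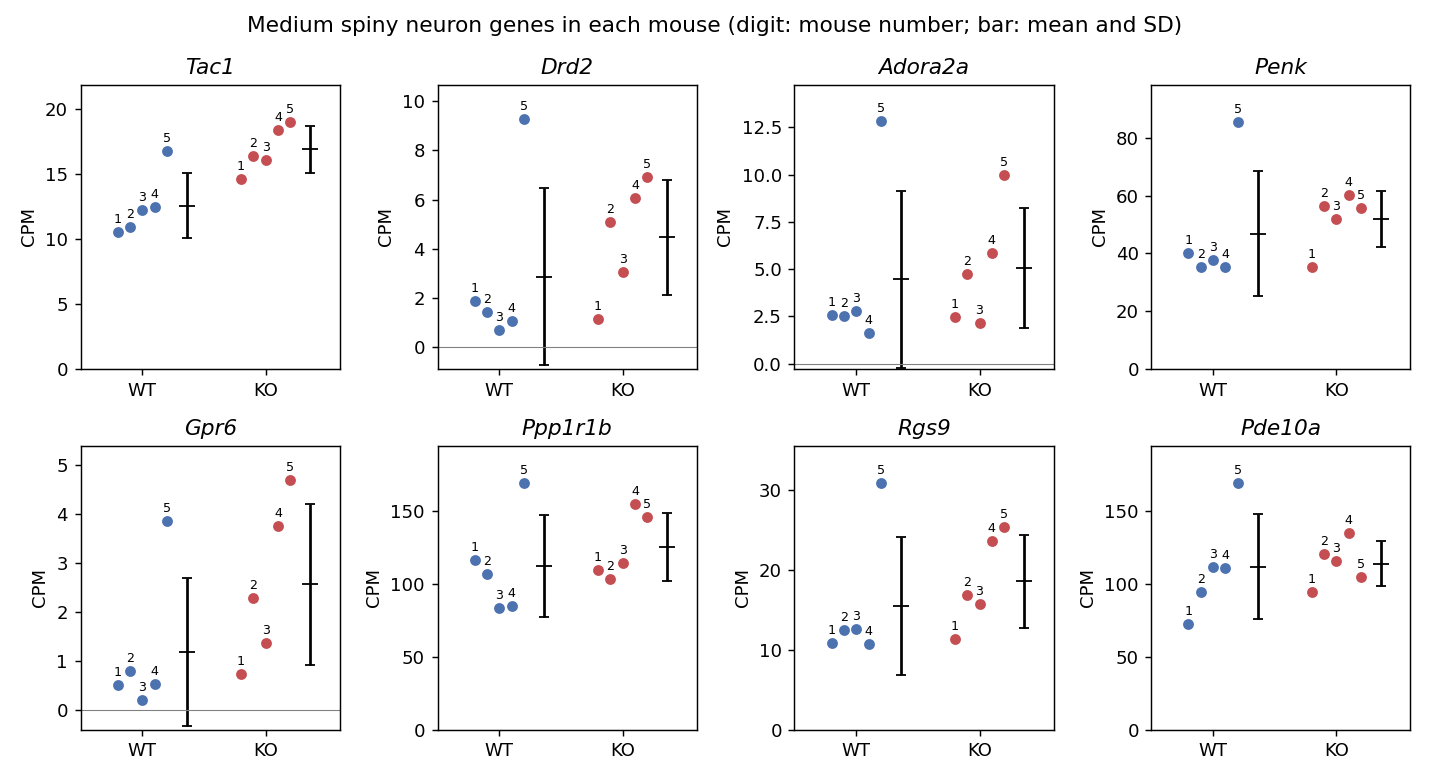
CPM (y axis) of the 8 medium spiny neuron genes in each WT (blue) and KO (red) mouse, with the mouse number beside each point and the mean and SD of the group as a bar (n = 5 per group). WT 5 is the highest mouse in 6 of the 8 panels, while WT 1 to WT 4 lie together near the bottom of most of them.

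The order of the mice was much the same from gene to gene. WT 5 was first in 6 of the 8 genes and among the first 3 in all 8, KO 4 was among the first 3 in all 8 and KO 5 in 6. At the other end, KO 1, WT 2 and WT 4 were in the lower 5 places for all 8 genes. The highest mouse exceeded the lowest by 23.8-fold for *Gpr6*, 13.2-fold for *Drd2* and 7.95-fold for *Adora2a*. For *Rgs9*, *Penk*, *Pde10a*, *Ppp1r1b* and *Tac1* this range was 2.88-, 2.43-, 2.33-, 2.03- and 1.81-fold. The median over the 8 genes was 2.66-fold, against 1.32-fold over all 14344 genes. The coefficient of variation over the 10 mice was 88.9% for *Gpr6*, 81.5% for *Drd2* and 79.8% for *Adora2a*, and 0.0767%, 0.153% and 0.174% of all tested genes had a larger one. It was 41.9% for *Rgs9*, 32.6% for *Penk*, 24.3% for *Ppp1r1b*, 23.1% for *Pde10a* and 20.7% for *Tac1*, and for *Tac1* 17.2% of all genes had a larger one. Counts per mouse were 7 to 243 for *Gpr6*, 25 to 358 for *Drd2* and 58 to 517 for *Adora2a*. The part of counting error in their spread was not tested. The median coefficient over the 10506 genes between the lowest and the highest mean of the 8 genes was 8.57%. Those means run from *Gpr6* to *Ppp1r1b*, so this median is not matched to the genes of low counts. Without WT 5, the median range of the 8 genes was 2.11-fold.

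The 8 genes varied together across the mice. On log2(CPM + 1), the 28 pairs had a median Pearson r of 0.84 over the 10 mice, from 0.44 for *Ppp1r1b* with *Pde10a* to 0.96 for *Drd2* with *Gpr6*. Of these pairs, 18 had an r above 0.8, whereas the median over all pairs of tested genes was 0. *Rgs9* was the gene nearest to the rest, with a median r of 0.93 to the other 7, and *Pde10a* was the farthest, with 0.62. Within the indirect pathway, *Drd2* with *Penk* had an r of 0.95 and *Adora2a* with *Gpr6* one of 0.88. Across the pathways, *Tac1* had an r of 0.87 with *Gpr6* and 0.75 with *Penk*, and whether such pairs differ from the former was not tested. With the mean of each genotype subtracted the median was 0.86, and with WT 5 left out it was 0.81. It was 0.89 in the 6 mice with a RIN of 9.5 or above, and without KO 3 it was 0.85. The mice are shared by every pair, and no p is attached to these correlations.

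**Figure D2:**
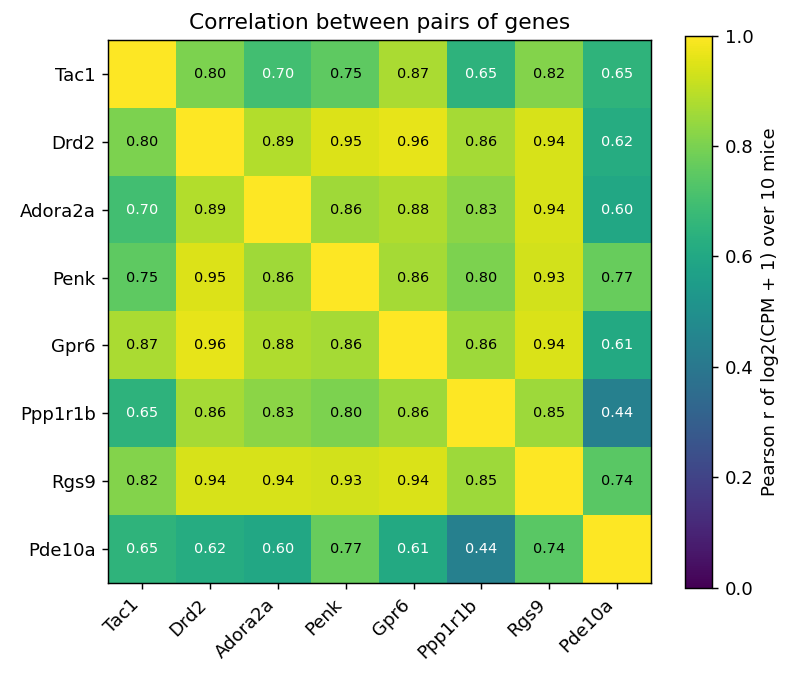
Pearson r of log2(CPM + 1) over the 10 mice for each pair of the 8 genes (color scale from 0 to 1, value printed in each cell). Values run from 0.44 to 0.96, with the lowest in the row of *Pde10a*.

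Other genes of striatal projection neurons provided a comparison that used none of the 8. The list of 28 such genes held *Adcy5*, *Gnal*, *Rasd2*, *Rarb* and *Chrm4* among others; 24 of them passed the filter, and their mean centered log2(CPM + 1) was taken as a score for each mouse. The score was 0.41 in WT 5, 0.29 in KO 5 and 0.17 in KO 4, and between -0.30 and 0.05 in the other 7 mice. The mean score of the KO mice was 0.07 ± 0.16 (SD, n = 5) and that of the WT mice -0.07 ± 0.28 (SD, n = 5), so the genotypes overlapped.

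The correlation with this score was positive for all 8 genes. *Drd2* had a Pearson r of 0.97 (permutation p = 1e-05, the smallest that the 100000 permutations can give) and *Gpr6* one of 0.96 (permutation p = 4e-05). For *Rgs9* the r was 0.95 (permutation p = 0.00011), for *Penk* 0.92 (permutation p = 0.00027), for *Adora2a* 0.92 (permutation p = 0.00041) and for *Ppp1r1b* 0.91 (permutation p = 0.00033). *Tac1* had an r of 0.80 (permutation p = 0.00661) and *Pde10a* one of 0.63 (permutation p = 0.0485). Spearman's rho was 0.96 for *Drd2* (permutation p = 5e-05), 0.93 for *Gpr6* (permutation p = 0.00033), 0.85 for *Tac1* (permutation p = 0.0026) and 0.84 for *Rgs9* (permutation p = 0.00395). It was 0.83 for *Ppp1r1b* (permutation p = 0.00435), 0.79 for *Penk* (permutation p = 0.00899), 0.71 for *Adora2a* (permutation p = 0.0267) and 0.54 for *Pde10a* (permutation p = 0.114). Across all genes the median r with the score was 0.0055, and 3.81% of them had a positive r with an unadjusted p below 0.05, against all 8 of the genes described here.

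Adjusted over the 14320 genes outside the score, no gene passed 0.05 (0% of them with a positive r) and the lowest adjusted permutation p among the 8 was 0.0716, for *Drd2*. The number of permutations drawn limits that value. When all 3628800 orders of the 10 mice were enumerated, a step added after the data had been seen, *Drd2* passed with an exact p of 1.7e-06 and an adjusted p of 0.0237, the only gene of the 14320 to do so (0.00698%), and *Gpr6* did not, with an adjusted exact p of 0.126. With genotype means subtracted, *Gpr6* and *Drd2* passed (r of 0.97 each, adjusted permutation p = 0.0477), among 0.0209% of all genes. The number of permutations drawn limits that value as well. These permutations ran over all 10 mice and made no allowance for the subtracted means, so this pass is a description. By Spearman's rho, the adjusted permutation p was 0.573 for *Drd2* and *Gpr6* and between 0.573 and 0.756 for all 8. Without WT 5 and KO 5, the 2 mice farthest from the median score, r was 0.98 for *Gpr6*, 0.97 for *Drd2*, 0.89 for *Penk*, 0.87 for *Rgs9*, 0.82 for *Ppp1r1b*, 0.81 for *Tac1* and 0.75 for *Adora2a*. For *Pde10a* it was 0.51, and it was 0.36 without WT 5 alone. In the 6 mice with a RIN of 9.5 or above, the 8 values of r lay between 0.74 for *Tac1* and 1.00 for *Adora2a*, and without KO 3 they lay between 0.64 for *Pde10a* and 0.97 for *Drd2*.

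**Figure D3:**
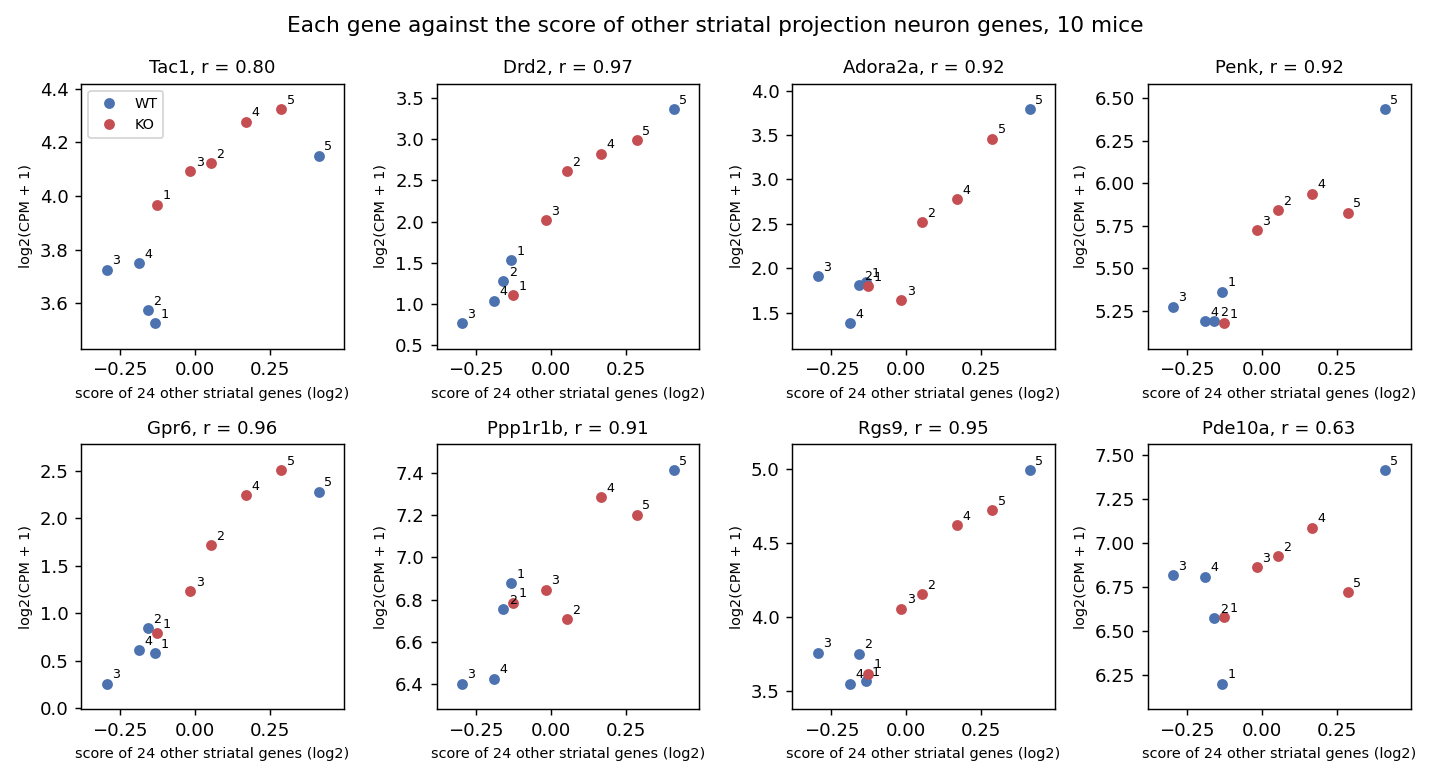
log2(CPM + 1) of each of the 8 genes (y axis) against the mean centered log2(CPM + 1) of 24 other striatal projection neuron genes (x axis) in 10 mice, WT in blue and KO in red, with mouse numbers. Points of *Drd2* and *Gpr6* lie close to a line, with r of 0.97 and 0.96, and those of *Pde10a* scatter, with an r of 0.63.

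The 10 tested genes most like the 8 in their pattern over the 10 mice were *Dguok* (r of 0.97 to the mean of the 8), *Lrrc10b* (0.96), *Pde1b* (0.96), *Syndig1l* (0.95), *Gng7* (0.95), *Sh3rf2* (0.94), *Igfbpl1* (0.93), *Cd4* (0.93), *Mzt2* (0.89) and *Hs3st4* (0.89). Of these, 5 were in the list of other striatal projection neuron genes. *Syndig1l* ranged from 2.16 CPM in WT 1 to 15.4 CPM in WT 5, and *Lrrc10b* from 2.696 CPM in WT 4 to 16.8 CPM in WT 5. By contrast, *Dguok*, an enzyme of mitochondrial nucleotide metabolism, ranged only from 8.41 CPM in KO 1 to 11.7 CPM in WT 5.

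Markers of other cells and regions were summed in the same mice. The 8 genes together were at 498 CPM in WT 5 and 256 to 265 CPM in the other WT mice, and at 270 to 408 CPM in the KO mice. The list of other striatal projection neuron genes was at 1585 CPM in WT 5, 1180 to 1262 CPM in the other WT mice and 1230 to 1445 CPM in KO mice. Markers of striatal cholinergic interneurons were low in every mouse, and their sum was highest in WT 5, at 7.34 CPM, followed by 6.92 CPM in KO 2, with 3.62 CPM in WT 1 as the lowest. Cortical excitatory neuron markers were at 6180 to 7191 CPM in KO mice and 5858 to 6574 CPM in WT mice. Their sum was 6075 CPM in WT 5, and 12 of 12 of these genes passed the count filter. Of this sum, *Camk2a* alone was 3754 to 4297 CPM in KO mice and 3502 to 3899 CPM in WT mice. Olfactory bulb markers were also highest in WT 5, at 14.6 CPM against 4.73 to 10.2 CPM in the other 9 mice. Oligodendrocyte markers, which are rich in the white matter between cortex and striatum, were highest in KO 2, at 9400 CPM, and at 8445 CPM in WT 5. The part that any of these other cells or regions had in the levels of the 8 genes was not tested.

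**Figure D4:**
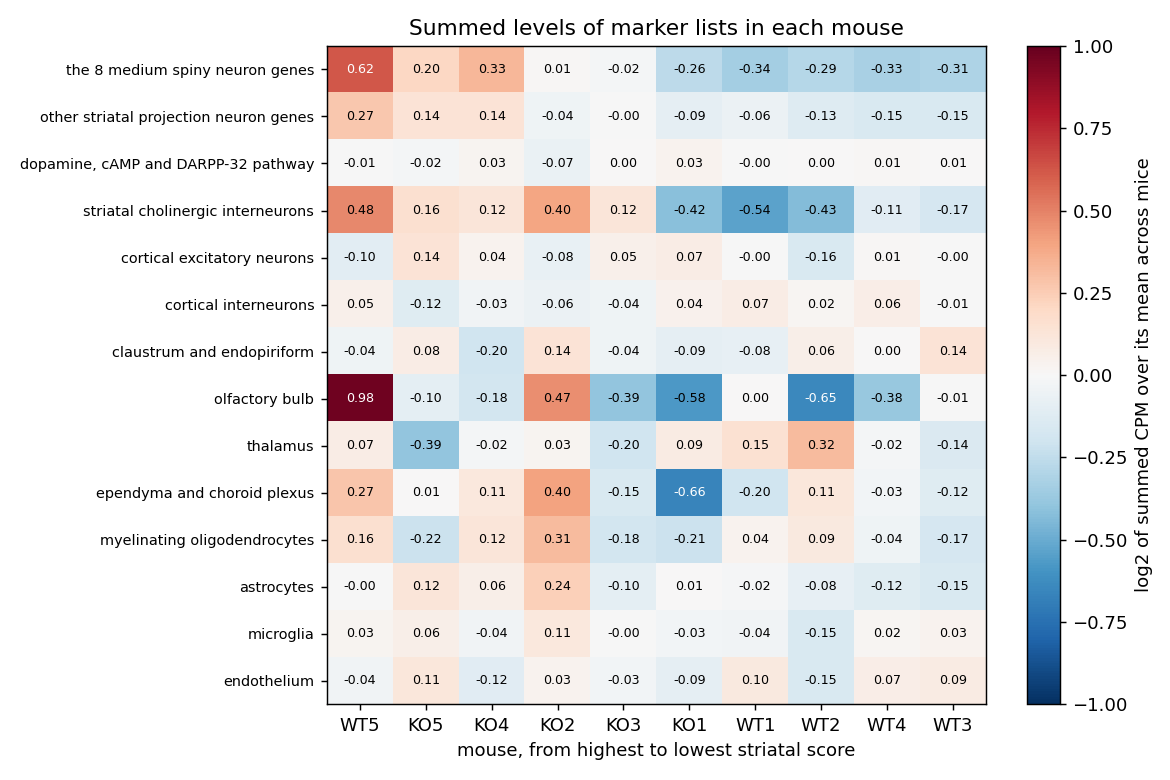
Summed CPM of each marker list in each mouse, as log2 of its ratio to the mean over the 10 mice (color and printed value), with mice ordered from the highest to the lowest score of other striatal projection neuron genes. The upper 2 rows are highest in WT 5, at 0.62 and 0.27, and the row of the dopamine and cAMP pathway stays between -0.07 and 0.03.

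Between KO and WT mice, none of the 8 genes passed the threshold. In the model with genotype and 3 surrogate variables, which stand for unrecorded differences between libraries and had absolute correlations of 0.652, 0.456 and 0.414 with the striatal score, 121 of 14344 genes (0.844%) were called at the adjusted threshold of 0.05 by the quasi-likelihood test of edgeR, and 0 of the 8 were. At an unadjusted p below 0.05 there were 4 of the 8 (*Gpr6*, *Tac1*, *Ppp1r1b* and *Drd2*), against 10.6% of all genes. This count depended on the model. It was 1 of 8 with no surrogate variables (8.02% of all genes), 1 with RIN in their place (1318 of 14344 genes) and 1 with 1 surrogate variable (1168 genes). With 2 surrogate variables it was 2 (1374 genes), with DESeq2 2 (1361 genes) and with the replicate number as a block 3 (1276 genes). Surrogate variables estimated without the striatal genes gave 4 (1498 genes). The 4 mice with a RIN of 8.3 or below gave 7 (813 of 14463 genes). The log2 fold change, KO over WT, was positive for 6 of 8 and for 6898 of all 14344 genes. Its median was 0.19 over the 8 and -0.0044 over all genes.

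*Gpr6* had the largest value, with 2.56 ± 1.65 CPM in KO mice against 1.18 ± 1.52 CPM in WT mice (SD, n = 5 each), a log2 fold change of 1.22 ± 0.28 (SE) and an adjusted p of 0.0576. It passed with DESeq2 (log2 fold change 1.27, adjusted p = 0.0056), which called 1.14% of genes higher in KO mice, and with no filter on low counts (1.23, adjusted p = 0.0435 in edgeR), where 0.586% were called higher. Over all alternatives its adjusted p lay between 0.0056 and 0.957, with 3 of them below 0.05. *Tac1* was at 16.9 ± 1.78 CPM in KO mice and 12.6 ± 2.47 CPM in WT mice (SD, n = 5 each), a log2 fold change of 0.36 ± 0.09 (SE) with an adjusted p of 0.0916 in edgeR. With DESeq2 it passed, at 0.36 and an adjusted p of 0.0373, and its adjusted p over the alternatives ranged up to 0.846. *Ppp1r1b* was at 126 ± 23.3 CPM in KO mice and 112 ± 35.0 CPM in WT mice, and its log2 fold change was 0.21 ± 0.08 (SE; adjusted p = 0.328, edgeR).

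*Drd2* was at 4.46 ± 2.34 CPM in KO mice and 2.87 ± 3.60 CPM in WT mice, with a log2 fold change of 0.69 ± 0.30 (SE; adjusted p = 0.421, edgeR). *Drd2* lies on the chromosome of the mutated gene, at chr9:49340627-49408177 on GRCm38, and *Zbtb16* is at chr9:48654297-48836222, a gap of 0.504 Mb. Of 4 tested genes between them, 1 passed the threshold, against 121 of all 14344 genes (0.844%). That gene was *Zw10*, named after its values were seen, with a log2 fold change of -0.36 (adjusted p = 0.0337, edgeR). The mutation arose on another background than the one it was crossed to, and whether the sequence around *Drd2* differs between the genotypes was not tested. The other 4 genes had values near 0. The log2 fold change was 0.16 ± 0.14 (SE) for *Rgs9*, 0.09 ± 0.14 for *Penk*, -0.01 ± 0.12 for *Pde10a* and -0.02 ± 0.24 for *Adora2a*, with adjusted p between 0.749 and 0.986 (edgeR).

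The comparison turned on WT 5. Without it the same model had 0.478% of genes higher in KO mice, and 3 of the 8 were among them. *Ppp1r1b* had a log2 fold change of 0.47 (adjusted p = 0.0334, edgeR), *Tac1* one of 0.48 (adjusted p = 0.0424) and *Gpr6* one of 2.25 (adjusted p = 0.043). All 8 log2 fold changes were then positive, with a median of 0.52 and 7 of 8 at an unadjusted p below 0.05, against 9.09% of all genes. WT 5 was left out because it was high in these same genes, so this count is a description. *Drd2* was at 1.69 (adjusted p = 0.11), *Adora2a* at 0.82 (adjusted p = 0.162), *Rgs9* at 0.56 (adjusted p = 0.197), *Penk* at 0.40 (adjusted p = 0.254) and *Pde10a* at 0.16 (adjusted p = 0.774). Among WT 1 to WT 4 the mean of *Drd2* was 1.27 ± 0.51 CPM (SD) and that of *Gpr6* 0.50 ± 0.24 CPM, and 4 of 5 KO mice were above all 4 of them for each. For *Tac1*, 5 of 5 KO mice were above all 4. Without KO 3, whose Y-linked counts went against its label, 0 of the 8 passed, against 54 of 14440 genes. At an unadjusted p below 0.05 in edgeR there were 2 of the 8, against 1246 of 14440 genes. Under this fit 5 of 8 log2 fold changes were positive, and their median was 0.07.

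Fits that held other measures of the libraries gave other sizes. With no surrogate variables, 30 genes (0.209%) passed and 0 of the 8, all 8 values were positive and their median was 0.23. With no surrogate variables and without WT 5, a combination added after the data had been seen, *Tac1* passed (0.55, adjusted p = 0.0372, edgeR), among 0.0901% of genes called higher in KO mice. When the score of other striatal projection neuron genes took the place of the surrogate variables, the median of the 8 was -0.0087, 3 of 8 values were positive and 0 passed. Under that fit *Gpr6* was at 0.77 (adjusted p = 0.54), *Drd2* at 0.38 (adjusted p = 0.758) and *Tac1* at 0.32 (adjusted p = 0.308), and *Adora2a* was at -0.19 (adjusted p = 0.91). In the 6 mice with a RIN of 9.5 or above, which include WT 5, the median was -0.04 and 3 of 8 were positive. In the 4 mice with a RIN of 8.3 or below, it was 0.73 and 7 of 8 were positive, with 0 of the 8 passing in either group. These 4 were KO 3, whose Y-linked counts went against its label, KO 5, WT 3 and WT 4. Their striatal scores were -0.02, 0.29, -0.30 and -0.19. Both KO mice were thus above both WT mice, so genotype and striatal score cannot be told apart there.

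**Figure D5:**
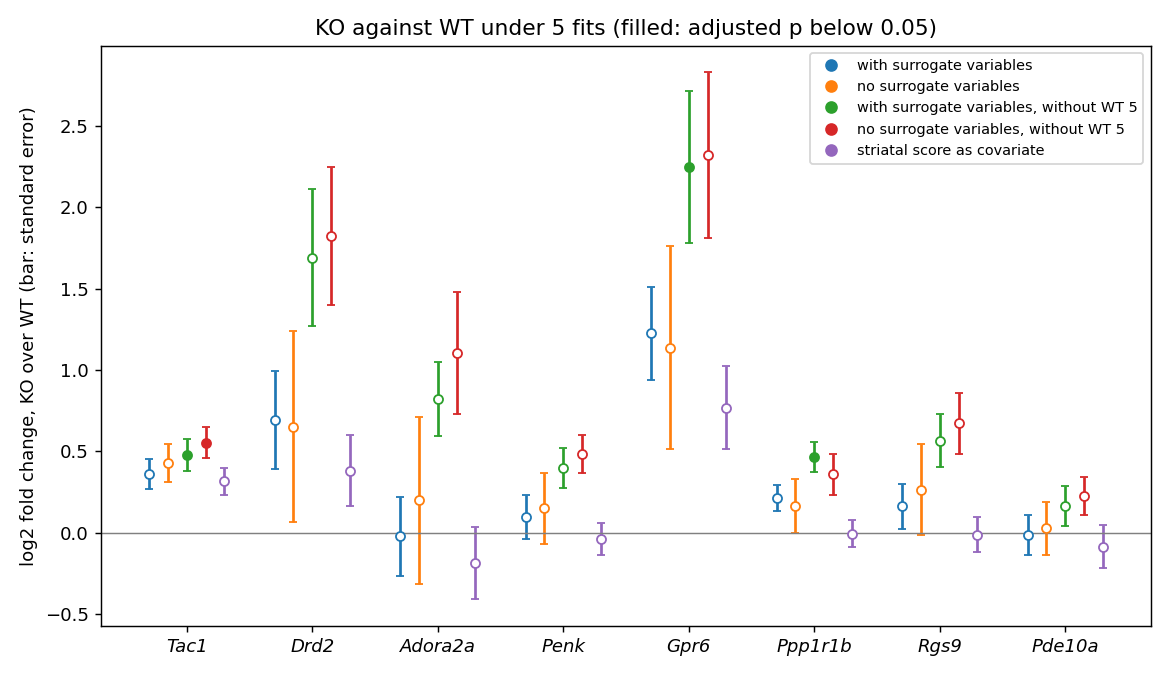
log2 fold change, KO over WT, with its standard error (y axis) for the 8 genes (x axis) under 5 fits in edgeR, with filled points where the adjusted p is below 0.05. The fits without WT 5 lie above the fits with all 10 mice for all 8 genes, with *Gpr6* at 2.25 against 1.22.

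The wider pathways were also examined. Over all 14344 tested genes, 121 (0.844%) passed in edgeR, 1522 (10.6%) had an unadjusted p below 0.05 and 6898 were positive. Of the 24 other striatal projection neuron genes tested, 0 passed in edgeR, 5 had an unadjusted p below 0.05, 20 were positive, and the median log2 fold change was 0.12. The most abundant was *Gnal*, the G protein that couples DRD1 and the adenosine receptor to adenylyl cyclase, at 199 ± 13.9 CPM in KO mice and 178 ± 11.7 CPM in WT mice (log2 fold change 0.13, adjusted p = 0.241). The 36 genes of dopamine, cAMP and DARPP-32 signaling, such as subunits of protein kinase A and protein phosphatase 1, are made by most neurons. Of these, 0 passed in edgeR, 3 had an unadjusted p below 0.05, 20 were positive and the median log2 fold change was 0.01. *Pde2a*, a phosphodiesterase of cAMP and cGMP, had the largest of them, 0.15 (adjusted p = 0.643), and *Cpe*, which trims neuropeptides such as enkephalin, was the most abundant, at 2175 ± 161 CPM in KO mice and 2111 ± 58.5 CPM in WT mice (0.0017, adjusted p = 0.99). The median r of these 36 genes with the striatal score was -0.18, where that of the 8 genes was 0.92. For the other lists the median r lay between -0.25 (cortical excitatory neurons) and 0.53 (striatal cholinergic interneurons), with 0.43 for astrocytes, 0.40 for the olfactory bulb, 0.32 for ependyma and choroid plexus and 0.25 for oligodendrocytes.

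None of the marker lists of other cells and regions held a gene that passed in edgeR. At an unadjusted p below 0.05 there were 2 of 5 tested genes of striatal cholinergic interneurons, 3 of 12 of cortical excitatory neurons, 5 of 12 of cortical interneurons, 0 of 5 of the claustrum, 1 of 4 of the olfactory bulb, 1 of 6 of the thalamus and 0 of 6 of ependyma and choroid plexus. There were also 2 of 10 of oligodendrocytes, 2 of 6 of astrocytes, 1 of 6 of microglia and 1 of 6 of endothelium. The share over all genes was 10.6%. Median log2 fold changes of these lists lay between -0.42 (olfactory bulb) and 0.09 (astrocytes). *Chat*, the enzyme of acetylcholine synthesis that defines cholinergic interneurons, was at 0.27 ± 0.15 CPM in KO mice and 0.59 ± 0.37 CPM in WT mice (log2 fold change -1.47, adjusted p = 0.168). *Ecel1*, the most abundant gene of that list, was at 2.58 ± 0.61 CPM in KO mice and 1.61 ± 0.22 CPM in WT mice (0.58, adjusted p = 0.242). With the surrogate variables, 1 of the 5 tested genes of the list was positive, with a median log2 fold change of -0.11. With no surrogate variables, 3 of the 5 were positive, with a median of 0.04. *Calb2*, which marks a class of cortical interneurons, was at 11.2 ± 0.71 CPM in KO mice and 8.29 ± 1.597 CPM in WT mice (0.41, adjusted p = 0.121, edgeR). It went against its list, where 2 of 12 genes were positive and the median log2 fold change was -0.06. The most abundant gene of that list, *Gad1*, was at 343 ± 19.3 CPM in KO mice and 367 ± 20.9 CPM in WT mice (-0.05, adjusted p = 0.678, edgeR). *Camk2a*, a kinase and the most abundant gene in the list of cortical excitatory neurons, was at 4072 ± 202 CPM in KO mice and 3741 ± 182 CPM in WT mice (0.12, adjusted p = 0.0684, edgeR).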

How the data were processed

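Polyadenylated RNA from the PFC of 5 KO and 5 WT mice was sequenced, with 1 library per mouse. The authors aligned reads to mm10 with STAR (2.7.1a), removed multi-mapped reads and used HTSeq (0.9.1) to count unique reads over the exons of the coding genes in Gencode M21. The deposited values are these counts for 22000 genes, without normalization. KO and WT were compared in edgeR (4.0.16, R 4.3.3) by quasi-likelihood tests with TMM, its count filter, 3 surrogate variables from sva (3.50.0, seed 1) and Benjamini-Hochberg adjustment at 0.05. DESeq2 (1.42.0) was an alternative. Surrogate variables were estimated on log2(CPM + 1) scaled to total counts. That scaling was chosen over TMM-scaled CPM after the number of genes each of them called had been seen, 121 and 115, and it gave the number known from an earlier analysis of these data. CPM in the text are TMM-scaled. Correlations used log2(CPM + 1), a pseudocount of 1 and 100000 two-sided permutations of the mice, adjusted over 14320 genes. Scripts ran in Python 3.11.15 and were tested on simulated data. Positions come from Gencode M21 and promoters from RefSeq, both on GRCm38. The genes named are the 8 genes, the most abundant and most changed gene of the lists, the 10 most alike genes and *Zbtb16*; *Zw10* and the Y-linked genes were chosen after their values were seen, and so was the emphasis on WT 5. One gene that this rule names is not reported here. The genes and all lists were chosen with earlier results of these data known. Nothing states that the mice came from separate litters, so p-values measure the spread between these samples, and detection floors cover counting error only.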

Additional observations from a re-analysis of the deposited data

Results flagged for a closer look

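WT 5 was far above the other 4 WT mice in 5 of the 8 genes, by Dixon's test for a single distant value in a group of 5. *Drd2* was at 9.27 CPM in WT 5 and 0.70 to 1.89 CPM in the other WT mice. *Adora2a* was at 12.8 CPM against 1.61 to 2.76 CPM. *Penk* was at 85.6 CPM against 35.5 to 40.1 CPM. *Gpr6* was at 3.87 CPM against 0.20 to 0.80 CPM. *Rgs9* was at 30.9 CPM against 10.7 to 12.6 CPM. The gap to the nearest mouse took 0.837 to 0.909 of the whole range, above the critical value of 0.71. Chance marks about 1 in 20 groups, and 16 groups were tested, none of the KO groups being marked. Since the 8 genes covary, the 5 marks are not independent of each other. Total counts and RIN of WT 5, 34822087 and 9.5, were within the range of the other mice.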

How the results depend on the processing

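The number of genes called depended strongly on the model, and the 8 genes seldom passed. Against 121 genes in all, 30 were called with no surrogate variables, 34 with 1 and 57 with 2, 38 with RIN, 24 with a replicate block and 15 with the striatal score in their place, 233 with DESeq2, 1 in the mice with a RIN of 9.5 or above, 0 in those of 8.3 or below, 16 with no surrogate variables and without WT 5, and 39 to 248 when each mouse was left out. TMM-scaled surrogate variables, added after the data were seen, gave 115, with 0 of the 8 passing. Of the 8, 1 passed with no filter, 2 with DESeq2, 1 with no surrogate variables and without WT 5, and 0 to 3 when each mouse was left out, the 3 arising without WT 5. Of the other striatal genes, 0 to 2 passed when each mouse was left out. They included *Dclk3* without KO 2 and *Scn4b*, which was lower in KO mice, without WT 2. For the correlation with the score, 2 of the 8 passed with genotype means subtracted and 1 with all orders enumerated. The permutations behind the former made no allowance for the subtracted means.

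In 6 of the 8 genes the value changed sign under at least 1 alternative. *Adora2a* was at 0.20 with no surrogate variables, 0.10 with surrogate variables estimated without striatal genes, 0.24 with RIN, 0.36 with the replicate block, 0.014 with DESeq2, 1.499 at a RIN of 8.3 or below, 1.10 with no surrogate variables and without WT 5, and -0.19 to 0.82 when each mouse was left out. *Pde10a* was at 0.027 with no surrogate variables, 0.0032 with 1, 0.011 with 2, 0.016 without striatal genes, 0.027 with RIN, 0.072 with the replicate block, 0.059 at a RIN of 9.5 or above, 0.23 with no surrogate variables and without WT 5, and -0.19 to 0.16 when each mouse was left out. With the striatal score, *Penk* was at -0.039, *Ppp1r1b* at -0.0061 and *Rgs9* at -0.011. At a RIN of 9.5 or above, *Drd2* was at -0.023, *Penk* at -0.082, *Ppp1r1b* at -0.094 and *Rgs9* at -0.066. *Penk* was at -0.059 to 0.40 when each mouse was left out. *Gpr6* and *Tac1* were positive under all 24 alternatives. The cause of these changes was not tested.

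The replicate numbers join different mice. Deviations from the group mean correlated at 0.17, -0.0018, 0.12, -0.11 and 0.10 for mice numbered 1 to 5, and 2 of 5 KO mice were nearest to their own number, so the block has no design behind it. The lowest count behind a CPM of the 8 genes was 7, for *Gpr6* in WT 3.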

Other observations

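A row named Drd stands in the count table beside separate rows for the dopamine receptors other than *Drd1*, and no reference table used here links that name to a gene. Its values, looked at after the others, were 8.38, 12.2, 10.7, 15.1 and 17.9 CPM in KO 1 to KO 5 and 12.7, 10.7, 9.33, 11.4 and 20.4 CPM in WT 1 to WT 5. WT 5 and KO 5 were again the 2 highest mice. The log2 fold change was -0.13 ± 0.11 (SE; adjusted p = 0.734, edgeR). These values were not counted among the 8 genes.

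Ratios within a mouse compare genes at the same dissection. *Gpr6* to *Adora2a* was 0.30, 0.48, 0.64, 0.64 and 0.47 in KO 1 to KO 5 and 0.19, 0.32, 0.07, 0.33 and 0.30 in WT 1 to WT 5, with 4 of 5 KO mice above all WT mice. In WT 5 this ratio lay within the range of the other WT mice, although both genes were far above theirs. *Drd2* to *Adora2a* was 0.94 ± 0.37 (SD, n = 5) in KO mice and 0.59 ± 0.20 in WT mice. *Tac1* to *Penk* was 0.33 ± 0.05 and 0.29 ± 0.06. The ratios were formed after the values had been seen, and no test was made.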
